A study of Homo sapiens with 6 samples.

Results

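EFNA5, SEMA3A, NEO1, DCC and CDH13 code for guidance ligands, netrin receptors and a cadherin, and each was the nearest gene of at least 1 region in the deposited accessibility tables. The member regions were chosen by their nearest gene, as written in the tables, and the tables themselves were selected on the unadjusted p of the authors' test of knockdown against control. They came to 8 of 591 listed entries, 3 of 323 in the DMSO table and 5 of 268 in the ATRA table. These 8 entries are 6 separate regions, because the EFNA5 region and the CDH13 region are each in both tables.

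The samples were cultures of NB4, an established acute promyelocytic leukaemia cell line that matures along the granulocyte path when given all-trans retinoic acid (ATRA). ATAC-seq reads, which come from sites where the Tn5 transposase can reach the DNA, were counted per region. There were 4 groups: control in DMSO (undifferentiated, 1 library), SMARCD2 knockdown in DMSO (2 libraries, 1 with shRNA1 and 1 with shRNA2), control in 1 µM ATRA (differentiated, 1 library) and SMARCD2 knockdown in 1 µM ATRA (2 libraries, 1 per hairpin). SMARCD2 is a subunit of the SWI/SNF (BAF) chromatin remodelling complexes. The control column names carry "scr", and the labels do not say what that construct holds, whether a line is 1 clone, or whether the libraries come from separate cultures. The spread between hairpins may therefore be technical, and the spread between controls was not measured. In a bulk library, fewer cells with an open region and a less open region in each cell cannot be told apart.

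Ephrins are ligands on the cell surface that signal to Eph receptors on neighbouring cells, and class 3 semaphorins are secreted ligands that act through neuropilins and plexins. Netrins are secreted cues read by DCC, its relative neogenin and the UNC5 receptors, while cadherins hold cells together in a calcium-dependent way. These families are best known from growing axons, and several of them also act in the migration and adhesion of blood and vessel cells. No transcript or protein was measured here, so the values describe accessibility at a region and not the activity of the gene.

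All 8 entries rested on few reads, between 19 and 38 over the 3 libraries of a treatment, where the median listed region had 37 in DMSO and 33 in ATRA. In DMSO the effective library size was 13824000 reads with shRNA1, 14640000 with shRNA2 and 11497000 for the control. In ATRA the sizes were 17605000, 17293000 and 14373000. Levels below are reads per 1000000 of this size (CPM), with 95% exact Poisson intervals that cover counting error only. For a library with 0 reads, the upper end of this interval is given. The sizes were fitted from the tables, and the split between the hairpins is less firmly set than their sum.

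In the knockdown, 6 of the 8 entries were higher than in the control and 2 were lower. The higher ones were EFNA5 and CDH13 in both treatments and both DCC regions in ATRA. The lower ones were NEO1 in DMSO and SEMA3A in ATRA. Among all listed regions, 65.9% were higher in DMSO and 79.1% in ATRA, against 2 of 3 and 4 of 5 of the entries here. In 5 of the 8 entries the control library had 0 reads (1 of 3 in DMSO, 4 of 5 in ATRA), while 34.7% of all listed regions in DMSO and 37.7% in ATRA had 0.

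**Figure D1:**
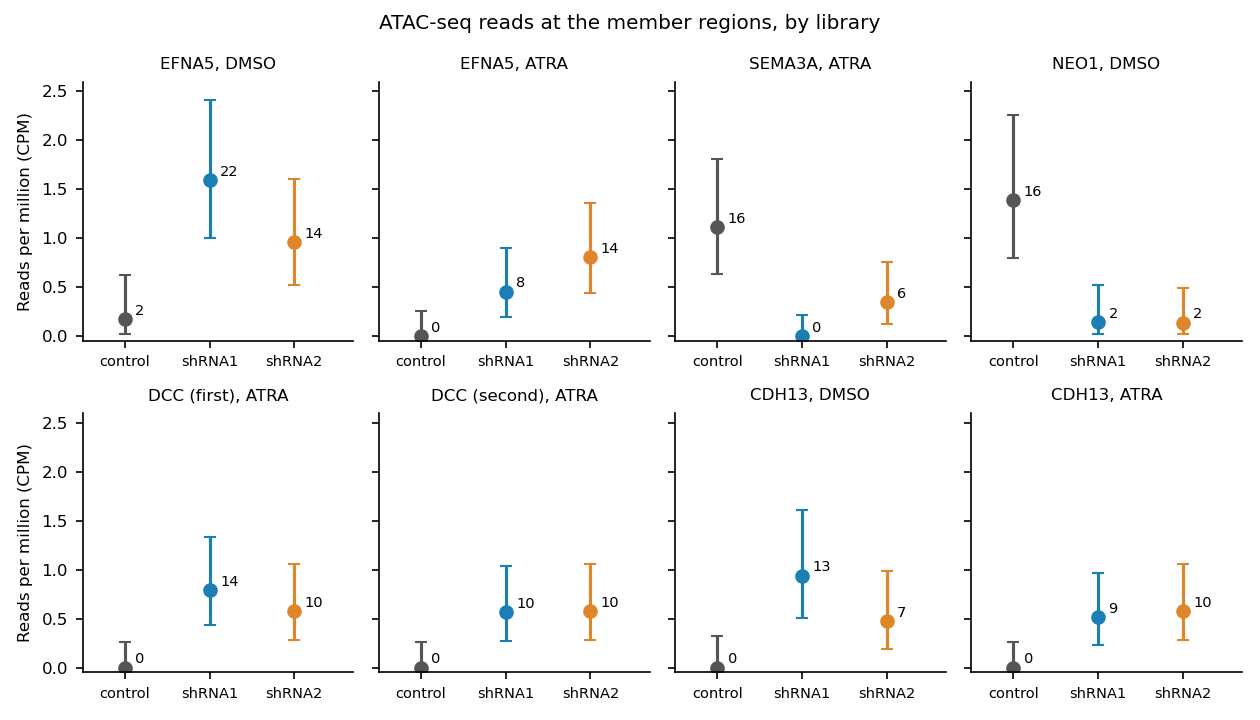
Scaled read counts (CPM, vertical axis) at each of the 8 entries in the control, shRNA1 and shRNA2 libraries, with bars for the 95% exact Poisson intervals and the raw reads printed beside each point. Both hairpins sit above the control in 6 panels, and both sit below it for SEMA3A in ATRA and NEO1 in DMSO, where the control had 16 reads.

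Of the ligands, EFNA5 codes for ephrin-A5, which is tethered to the membrane by a lipid anchor and binds EphA receptors. Its region lies inside the gene (chromosome 5, 106724909 to 106725064, GRCh37.p13) and is 156 bp wide. In DMSO it held 22 reads with shRNA1, 14 with shRNA2 and 2 in the control, or 1.59 CPM (0.997 to 2.41), 0.956 CPM (0.523 to 1.60) and 0.174 CPM (0.0211 to 0.628). Both hairpins were above the control, and only the interval of shRNA1 was clear of the control's. The summed knockdown level was 7.27-fold higher (95% exact interval 1.87 to 62.3), with 9.15-fold for shRNA1 and 5.50-fold for shRNA2 taken alone.

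In ATRA the same EFNA5 region held 8 reads with shRNA1, 14 with shRNA2 and 0 in the control. The levels were 0.454 CPM (0.196 to 0.895) and 0.810 CPM (0.443 to 1.36), against 0 with an upper limit of 0.257. Both hairpins were above the control, with the interval of shRNA1 reaching below the control's limit, and their order was opposite to that in DMSO. Within each treatment the ratio of shRNA1 to shRNA2 could not be told from 1 (1.66, 0.814 to 3.52, in DMSO, and 0.561, 0.204 to 1.43, in ATRA). Against the floor of 3 control reads the knockdown was 3.02-fold higher, a ratio that leaves out the counting error of the knockdown reads. The exact lower limit, which also covers the knockdown reads, was 2.26.

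Over all 6 libraries EFNA5 ranked from shRNA1 in DMSO (1.59 CPM) through shRNA2 in DMSO (0.956), shRNA2 in ATRA (0.810), shRNA1 in ATRA (0.454) and the DMSO control (0.174) to the ATRA control (0). The interval of each library overlapped that of the next in this order. Overlap of separate intervals does not settle whether a step exceeds counting error, and the steps of this order were not tested. The knockdown mean was 1.27 ± 0.449 CPM in DMSO (SD, n = 2) and 0.632 ± 0.251 CPM in ATRA (SD, n = 2). The 2 tables were scaled separately, so this difference in level was not tested.

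SEMA3A codes for semaphorin 3A, a secreted cue that repels growing axons through neuropilin and plexin receptors. Its region was the only entry outside a gene, 204 bp from SEMA3A (chromosome 7, 83824422 to 83824497), and at 76 bp it ranked 12 of 268 from the narrowest in the ATRA table. It held 0 reads with shRNA1, 6 with shRNA2 and 16 in the control, or 0 CPM (upper limit 0.210), 0.347 CPM (0.127 to 0.755) and 1.11 CPM (0.636 to 1.81). The control was the highest library, and the interval of shRNA2 overlapped that of the control while that of shRNA1 did not. The knockdown was 6.47-fold lower (2.41 to 20.2) over both hairpins. Without shRNA1 it was 3.21-fold lower. Without shRNA2, which leaves 0 knockdown reads, the floor was 6.53-fold below the control, leaving out the counting error of the control reads. For counting error alone, the exact interval of shRNA1 over shRNA2 ran from 0 to 0.834. The spread between libraries of 1 hairpin was not measured. SEMA3A was not listed in DMSO, so its DMSO level was not analysed here.

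Of the netrin receptors, NEO1 codes for neogenin, which binds netrins and the repulsive guidance molecules. Its region lies inside the gene (chromosome 15, 73588343 to 73588485) and is 143 bp wide. In DMSO it held 2 reads with each hairpin and 16 in the control, or 0.145 CPM (0.0175 to 0.523), 0.137 CPM (0.0165 to 0.493) and 1.39 CPM (0.795 to 2.26). Both hairpin intervals lay wholly below that of the control. The knockdown was 9.90-fold lower (3.19 to 40.7), with 9.62-fold for shRNA1 and 10.2-fold for shRNA2. By the size of the authors' log2 fold change it ranked 4 of the 110 lower regions of the DMSO table. NEO1 was not listed in ATRA, so its level there was not analysed here.

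DCC, the founding netrin receptor, had 2 regions in the ATRA table and none in the DMSO table. The regions lie inside the gene, 425171 bp apart. The first (chromosome 18, 50062544 to 50062669, 126 bp) held 14 reads with shRNA1, 10 with shRNA2 and 0 in the control. Its levels were 0.795 CPM (0.435 to 1.33) and 0.578 CPM (0.277 to 1.06), against a control limit of 0.257. Set against the floor, the knockdown was 3.29-fold higher (exact lower limit 2.48).

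The second DCC region (chromosome 18, 50487841 to 50487924, 84 bp) held 10 reads with shRNA1, 10 with shRNA2 and 0 in the control, or 0.568 CPM (0.272 to 1.04) and 0.578 CPM (0.277 to 1.06). It was 2.75-fold above the floor (exact lower limit 2.03). At both DCC regions the hairpin intervals lay above the control's upper limit. DCC was 1 of 7 genes with more than 1 region in the ATRA table. The 2 regions share a gene and all 3 libraries and are not independent of each other. The netrin receptors thus differed in direction, NEO1 lower in DMSO and DCC higher in ATRA, but in different treatments, and no region of either gene was in both tables.

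CDH13 codes for T-cadherin, an unusual cadherin that has no cytoplasmic tail, is held by a lipid anchor and binds adiponectin. Its region lies inside the gene (chromosome 16, 83480548 to 83480634) and is 87 bp wide. In DMSO it held 13 reads with shRNA1, 7 with shRNA2 and 0 in the control, or 0.940 CPM (0.501 to 1.61) and 0.478 CPM (0.192 to 0.985) against a control limit of 0.321. Both hairpins were above the control, and the interval of shRNA2 reached below the control's limit. The knockdown was 2.69-fold above the floor (exact lower limit 1.99). With shRNA2 alone the ratio to the floor was 1.83, which leaves out the counting error of its 7 reads.

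In ATRA the CDH13 region held 9 reads with shRNA1, 10 with shRNA2 and 0 in the control, or 0.511 CPM (0.234 to 0.970) and 0.578 CPM (0.277 to 1.06) against a limit of 0.257. The interval of shRNA1 reached below that limit, and that of shRNA2 did not. The knockdown was 2.61-fold above the floor (exact lower limit 1.92). Over the 6 libraries the order ran from shRNA1 in DMSO (0.940 CPM) through shRNA2 in ATRA (0.578), shRNA1 in ATRA (0.511) and shRNA2 in DMSO (0.478) to both controls at 0. All 4 knockdown intervals overlapped one another. The knockdown mean was 0.709 ± 0.327 CPM in DMSO (SD, n = 2) and 0.545 ± 0.0474 CPM in ATRA (SD, n = 2).

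EFNA5 and CDH13 were the only 2 regions, among all entries of both tables, at identical coordinates, and no other pair of regions overlapped by 1 bp or more. Whether the knockdown effect at these regions differed between treatments was tested on the reads. EFNA5 had 36 knockdown and 2 control reads in DMSO and 22 and 0 in ATRA (two-sided Fisher's exact p = 0.528, adjusted p = 1.00 over the 2 regions). The test compares the reads of these libraries and not the conditions. With 2 control reads in all at EFNA5, no split of them could have given a p under 0.05. The test therefore cannot decide the question there. For EFNA5 a difference between treatments was not detectable at this depth. CDH13 had 20 and 0 reads in DMSO and 19 and 0 in ATRA. With 0 control reads in both treatments the test can return only a p of 1.00, so it says nothing of a difference at CDH13.

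**Figure D2:**
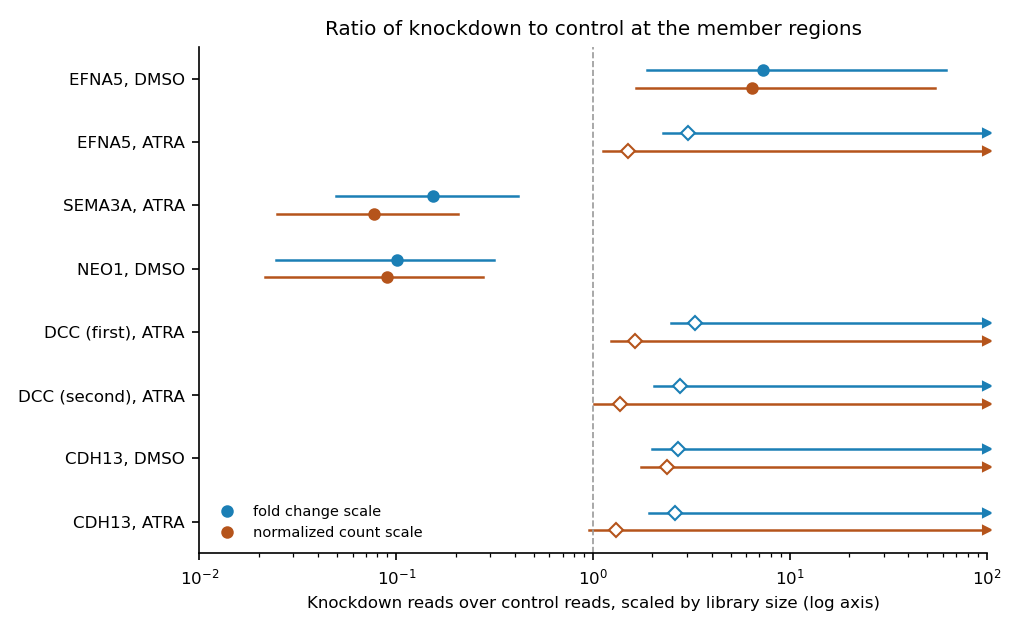
Knockdown over control at each entry (horizontal log axis, 1 marks no difference), with 95% exact intervals, on the scale of the authors' fold changes (blue) and of their normalized counts (brown). Open diamonds are ratios to a floor of 3 control reads, and arrows mark intervals without an upper end. NEO1 and SEMA3A lie below 1, and the 4 higher ATRA entries move towards 1 on the normalized count scale, where the interval of CDH13 starts at 0.958.

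The authors deposited a second scale, normalized counts, on which a ratio of knockdown to control is lower by 0.18 log2 units in DMSO and 1.01 in ATRA. On this scale EFNA5 in DMSO held 15.5 ± 5.59 in the knockdown (SD, n = 2) against 2.40 and was 6.40-fold higher. NEO1 held 1.71 ± 0.0849 (SD, n = 2) against 19.21 and was 11.2-fold lower. SEMA3A held 2.15 ± 3.03 (SD, n = 2) against 29.29 and was 13-fold lower (4.83 to 40.5). Against the floor, the higher ATRA entries were 1.64-fold (first DCC region), 1.5-fold (EFNA5), 1.37-fold (second DCC region) and 1.30-fold (CDH13) higher. Their exact lower limits were 1.24, 1.12, 1.01 and 0.958, so for CDH13 in ATRA no difference lies within the interval.

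The values that put the entries in the tables are the authors' own. In the authors' deposited table for DMSO, the log2 fold change was 2.80 for EFNA5 (p = 0.00467), 6.25 for CDH13 (p = 0.00256) and -3.22 for NEO1 (p = 6.26e-04). In the authors' deposited table for ATRA it was 6.39 for EFNA5 (p = 0.00152), 6.18 for CDH13 (p = 0.00245), 6.51 and 6.25 for the DCC regions (p = 0.00109 and 0.00209) and -2.64 for SEMA3A (p = 0.00309). Values near 6 belong to regions with 0 control reads and depend on the prior count of the fit, so they are not sizes of effect. EFNA5 in DMSO was nearest to the limit of selection, ranked 307 of 323 by p, where the largest listed p was 0.00499. Regions beyond that limit were not analysed here.

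When edgeR's quasi-likelihood test was fitted to all listed regions, 3 of 3 entries in DMSO and 5 of 5 in ATRA had an adjusted p under 0.05. This was true of 100% of the regions tested in DMSO (314 of 314) and of 100% in ATRA (267 of 267), as the tables were selected on the same contrast, and nothing is read from it. On the normalized count scale the ATRA calls fell from 267 (211 higher, 56 lower) to 148 (91 higher, 57 lower). The 148 were 57.6% of the 257 regions tested on that scale. There 4 of 4 entries tested were called, CDH13 having too few reads for the count filter, and nothing is read from this either. DESeq2 called 0 of the 8 entries, and its adjusted p was NA for 6 of them, which could not be called. Over all listed regions it called 0 of 323 in DMSO and 13 of 268 in ATRA. Its unadjusted p was under 0.05 for 1 of the 8 entries, the first DCC region. The same held for 80 of the 323 regions in DMSO and 96 of the 268 in ATRA, and nothing is read from the count of entries.

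**Figure D3:**
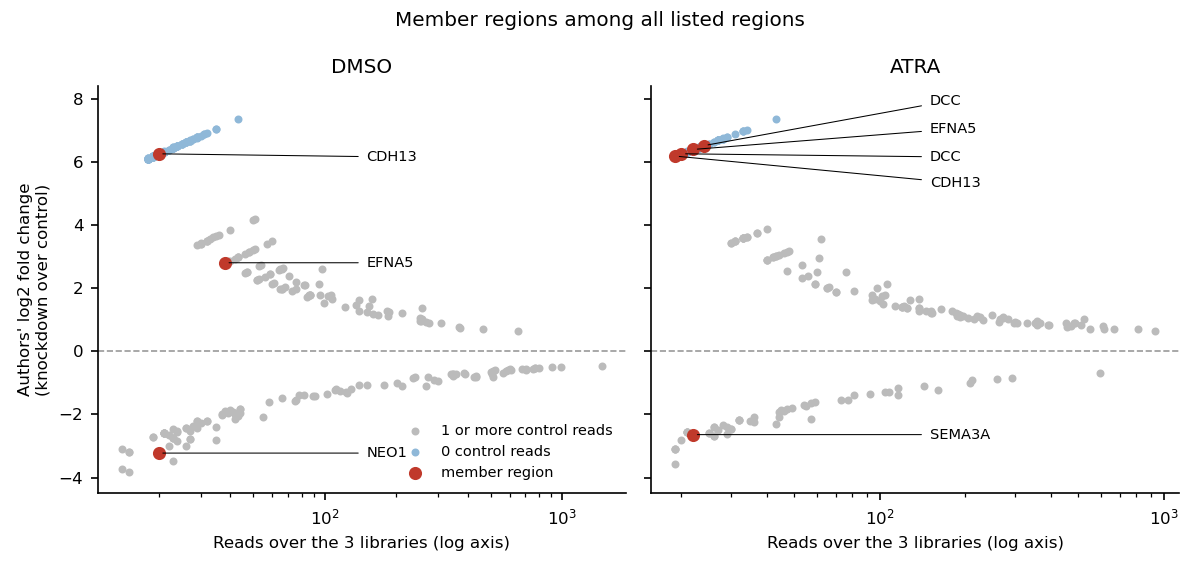
The authors' log2 fold change (vertical axis) against the reads over the 3 libraries (horizontal log axis) for every listed region in DMSO and in ATRA, with regions at 0 control reads in blue and the member regions in red. CDH13, DCC and, in ATRA, EFNA5 lie on the band of regions with 0 control reads, and NEO1 and SEMA3A lie at the low-read end of the lower regions.

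The plot of all listed regions shows how the reads place the entries. A listed region with 0 control reads had between 18 and 43 knockdown reads in DMSO (median 21) and between 19 and 43 in ATRA (median 21). The 4 higher ATRA entries had 19 to 24 such reads, and 78 of the 101 regions of this kind, these 4 included, fell in that range. CDH13 in ATRA, at 19 reads, had the fewest reads of any region in that table, level with several others such as DUSP12. By contrast the region with the most reads was at FCHSD2 in DMSO (1468 reads, log2 fold change -0.46 in the authors' deposited table) and at PABPN1 in ATRA (934 reads, 0.64). In width the 6 regions ran from 76 to 156 bp, where the median over the listed regions was 141 bp (DMSO) or 149 bp (ATRA). Of the 8 entries 7 lay inside a gene, as did 77.1% of listed regions in DMSO and 81.3% in ATRA.

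Regions with the most similar reads were found by the Euclidean distance of log2(CPM + 0.1) over the 3 libraries of a table. For EFNA5 in DMSO the region at MGAM was among the nearest (21, 15 and 2 reads for shRNA1, shRNA2 and control, distance 0.11). For NEO1 they lay at TOMM5 (2, 2 and 19 reads, distance 0.23) and MMP12 (3, 2 and 17, distance 0.38). For SEMA3A they lay at TRPC6 and HM13 (0, 4 and 15 reads each, distance 0.44). CDH13 in DMSO was nearest to DFNA5 (13, 8 and 0) and FGFBP3 (14, 8 and 0).

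In ATRA the reads of some entries were matched exactly by regions of other genes. The second DCC region had the same reads in all 3 libraries as 4 other regions, among them DDAH1 and DLG2. CDH13 shared its reads with 3 others, among them DUSP12 and LPCAT1, and EFNA5 with 1, at FLVCR1. The first DCC region was nearest to TSHR and UNKL (13, 10 and 0 reads each, distance 0.09). With so few reads, a match says only that the counts are alike.

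The wider guidance and cadherin families were read from 8 lists with 101 genes in all. Of these, 11 genes had a listed region in at least 1 table, with 14 entries, 12 higher and 2 lower, and both lower ones were NEO1 and SEMA3A. The 11 are 10.9% of the 101 genes, and 5 of them are the members, which were chosen because they were listed. Of the 20056 protein-coding genes in RefSeq (GRCh38.p14), 2.82% were the nearest gene of a listed region in either table. These shares take no account of gene length, and nothing particular to the lists is read from them. Per list, 1 of 6 netrins, 3 of 12 netrin receptors and their partners, 2 of 20 semaphorins, 1 of 11 neuropilins and plexins, 1 of 8 ephrins, 1 of 14 Eph receptors, 1 of 7 Slit and Robo genes and 1 of 23 cadherins were listed. In DMSO 5 entries were higher and 1 lower, and in ATRA 7 were higher and 1 lower, beside the 65.9% and 79.1% of all listed regions that were higher. The median of the authors' log2 fold changes over the 14 entries was 6.18, against 2.39 over all listed regions in DMSO and 2.35 in ATRA. The 6.18 was set by regions with 0 control reads and is not a size of effect. Such regions were 5 of the 8 member entries and 4 of the 6 others, beside 34.7% of all listed regions in DMSO and 37.7% in ATRA. The tables hold only selected regions, so how many of the other genes' regions were accessible was not analysed here.

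**Figure D4:**
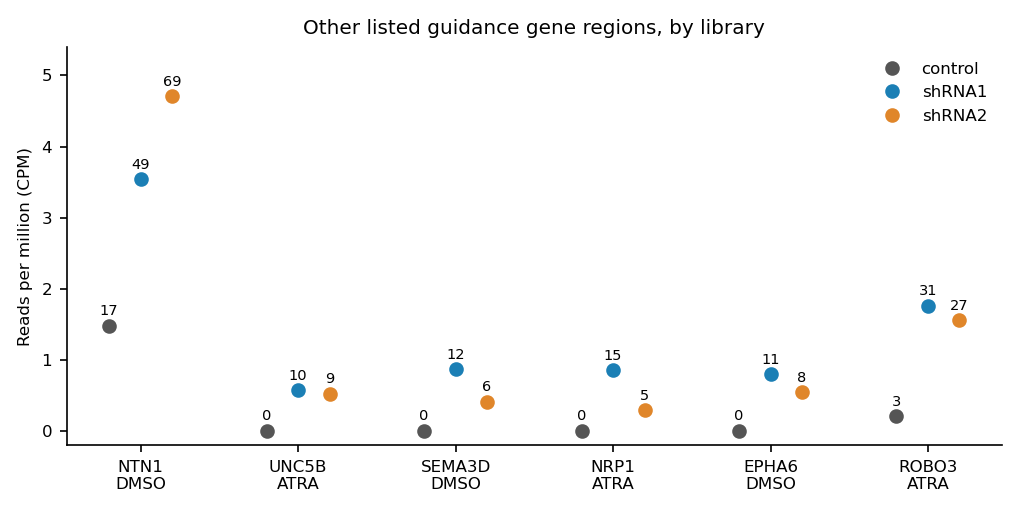
Scaled read counts (CPM, vertical axis) in the control, shRNA1 and shRNA2 libraries at the 6 listed regions of the other guidance genes, with raw reads printed above each point. Each hairpin lies above its control at all 6, and NTN1 in DMSO has the most reads (49 and 69 against 17).

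Among the ligands outside the 5 members, NTN1 codes for netrin-1, the ligand of DCC and neogenin. Its region inside the gene (chromosome 17, 9018877 to 9019303, 427 bp) was the best covered of the 14 entries, with 49, 69 and 17 reads in DMSO, and was 2.80-fold higher (1.68 to 4.97). SEMA3D, another class 3 semaphorin gene, had 12, 6 and 0 reads in DMSO. Against the floor it was 2.42-fold higher (exact lower limit 1.78). Without shRNA1 the ratio to the floor was 1.57. That ratio leaves out the counting error of the 6 reads with shRNA2 and is not a lower limit. NTN1 and SEMA3D were higher in DMSO, the treatment in which NEO1 was lower.

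Among the receptors, UNC5B, a netrin receptor gene, had 10, 9 and 0 reads in ATRA and was 2.61-fold above the floor (exact lower limit 1.92). NRP1, the neuropilin to which semaphorin 3A binds, had 15, 5 and 0 reads in ATRA and was 2.75-fold above the floor (exact lower limit 2.03). Without shRNA1 the ratio to the floor for NRP1 was 1.39. That ratio leaves out the counting error of the 5 reads with shRNA2 and is not a lower limit. At NRP1 shRNA1 was 2.95-fold above shRNA2 (1.02 to 10.4, for counting error alone). EPHA6, an Eph receptor gene, had 11, 8 and 0 reads in DMSO and was 2.56-fold above the floor (exact lower limit 1.88).

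ROBO3, a receptor gene of the Slit and Robo family, had 31, 27 and 3 reads in ATRA and was 7.96-fold higher (2.59 to 39.7), or 3.97-fold on the normalized count scale. On that scale UNC5B had an exact lower limit of 0.958 and NRP1 of 1.01. All 6 of these regions lay inside their gene, and 4 of the 6 had 0 control reads.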

How the data were processed

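The members and gene lists were chosen with earlier results of these data known. Samples were grouped by title. For the control kept in DMSO, the description line says ATRA, and the title, stage and column name were followed.

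The submitters' processing notes name bcl2fastq, STAR, Picard (2.5.0), MACS2 and edgeR with build GRCh37.p13. The sources used here do not give what each did, whether peaks were called per library or on pooled reads, or how duplicates and the Tn5 offset were handled. The authors deposited raw read counts, normalized counts (a signal), log2 fold changes, mean log2 CPM, the F score and unadjusted p-values, for regions with p under 0.005 only. Listed fold changes therefore lean towards large values. The deposited normalized counts equal the raw counts divided by DESeq2 size factors computed from the listed regions alone, within 4.19e-04% in 6 of 6 libraries.

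Effective library sizes, which the tables do not give, were fitted by least squares to the deposited log2 fold changes and mean log2 CPM through edgeR's formulas. They gave back the fold changes within 6.52e-04 (DMSO) and 3.01e-04 (ATRA) log2 units. The fit was checked on simulated tables; it set the sum of the hairpin libraries more closely than the split between them.

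Ratios are summed knockdown over control reads per library size, with 95% exact (Clopper-Pearson) intervals for counting error only. With 0 reads on a side, 3 reads over that side served as floor. edgeR 4.0.16 (quasi-likelihood, R 4.3.3, filterByExpr at 10 reads, Benjamini-Hochberg over the listed regions) was fitted per table with 1 residual degree of freedom, and DESeq2 1.42.0 was an alternative. Named are all regions of the 5 genes and of the lists, the 2 most similar regions for each member (1 of them is not reported here), and the regions with most and fewest reads. The fewest lay at SYTL2 in DMSO (14) and DUSP12 in ATRA (19). Exon or intron position and region sequences were not analysed here.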

Additional observations from a re-analysis of the deposited data

How the results depend on the processing

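The count filter cannot change a log2 ratio of knockdown to control, and an entry with 0 control reads cannot turn when a hairpin library is left out, so neither bears on the direction of those entries. On the normalized count scale and on DESeq2's size factors, which are the same scale, the bounds in ATRA moved from 1.38 to 0.38 (CDH13), from 1.72 to 0.72 and 1.46 to 0.45 (DCC), and from 1.59 to 0.59 (EFNA5). Leaving out a hairpin gave bounds of 0.87 to 1.85 for CDH13 and values of 2.46 to 3.19 for EFNA5 in DMSO, and 1.12 to 1.96 for EFNA5 in ATRA. These bounds are set against the floor and leave out the counting error of the knockdown reads. The number of listed regions called changed from 314 to 0 with DESeq2 in DMSO (80 at an unadjusted p under 0.05), and from 267 to 148 on the normalized count scale and 13 with DESeq2 in ATRA. At a stricter limit of p under 0.001, 1 of the 8 entries was left, NEO1, as were 21.5% of all 591 listed entries. Fisher's p for EFNA5 was 0.485 without shRNA1 and 1.00 without shRNA2. With 2 control reads in all at EFNA5, neither p could have fallen under 0.05. For CDH13 the test could return nothing else than 1.00. Counts of calls without a hairpin library were not run, since 1 library against 1 has no residual degrees of freedom. No paired analysis was possible because the control libraries carry no hairpin number, so the groups compared share fewer than 2 numbers. Depth limits all of these values: 5 entries have 0 control reads.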

Other observations

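The reads in listed regions differed between the ATRA libraries more than their sizes did: scaled to library size they held 594 CPM (shRNA1), 658 (shRNA2) and 385 (control), against 881, 887 and 957 CPM in DMSO. The listed regions were selected on knockdown against control, and 79.1% were higher in the knockdown in ATRA and 65.9% in DMSO. This difference in reads therefore cannot be read as one between whole libraries. The size factors computed from those regions were 1.26, 1.40 and 0.546 in ATRA, and 1.13, 1.21 and 0.833 in DMSO. In ATRA the 13 regions that DESeq2 called were all lower in the knockdown, while 211 of the 267 that edgeR called at the recovered sizes were higher. With edgeR on the scale of those size factors, 148 regions were called, 91 higher and 57 lower.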
